A study of Mus musculus with 8 samples.

Results

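The dopamine receptor family of the mouse consists of Drd1, Drd2, Drd3, Drd4 and Drd5, and its members were taken by gene symbol from the count table, where they made up 5 of 55376 features. RNA of the dissected left striatum was sequenced in 4 mice with the D9-Cre-Bcl11b tm1.1Leid genotype, called deletion mice, and in 4 Cre- mice, called control mice, each as 1 library. All 8 mice were 4 months old, of the C57Bl/129S2/Sv strain and labelled female, although the methods of the study describe animals of both sexes. The control mice were homozygous for the floxed Bcl11b allele, and the deletion mice carried the floxed allele with a Cre transgene driven by a regulatory element of Ppp1r1b, the gene for DARPP-32. Cre in this line acts in postnatal medium spiny neurons (MSNs), whereas the dissected tissue also holds interneurons, glia and vessels. Bcl11b encodes a zinc finger transcription factor also known as Ctip2. The comparison asked what loss of Bcl11b from mature MSNs does to transcript levels in the striatum.

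Dopamine receptors are G protein-coupled receptors of D1-like and D2-like classes. The D1-like receptors, encoded by Drd1 and Drd5, raise cyclic AMP through stimulatory G proteins (Golf in the striatum), whereas the D2-like receptors, encoded by Drd2, Drd3 and Drd4, act through inhibitory G proteins. In the striatum Drd1 marks the MSNs of the direct pathway together with Tac1 and Pdyn, and Drd2 marks those of the indirect pathway together with Penk and Adora2a. Drd3 is known mainly from the ventral striatum, Drd4 from the cortex and retina at low levels, and Drd5 from cholinergic interneurons among other neurons.

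Drd1 lies on chromosome 13 (chr13:54051183-54055705, minus strand) and Drd5 on chromosome 5 (chr5:38319367-38322518, plus strand), where it consists of 1 exon. Of the D2-like genes, Drd2 lies on chromosome 9 (chr9:49340627-49408177), Drd3 on chromosome 16 (chr16:43754026-43822932) and Drd4 on chromosome 7 (chr7:141292006-141296464), all on the plus strand of GRCm38. Sequences upstream of Drd1, Drd2 and Drd4 are given because Drd1 and Drd2 carried most of the family's transcripts and because Drd2 and Drd4 passed the test in opposite directions. They were taken from RefSeq promoters (GRCm38.p6) and stop before the first base of the gene in either annotation, which leaves 0 bases to the start given above for Drd1, 267 for Drd2 and 32 for Drd4. They are written 5′ to 3′ on the strand of the gene, and capitals mark GC boxes (GGGCGG, or CCGCCC on the other strand).
Drd1, chr13:54055706-54055908, minus strand: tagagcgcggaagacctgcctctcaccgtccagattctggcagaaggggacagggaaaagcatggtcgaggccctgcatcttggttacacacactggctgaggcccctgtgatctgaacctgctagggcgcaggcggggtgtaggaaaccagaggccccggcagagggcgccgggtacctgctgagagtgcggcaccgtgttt
Drd2, chr9:49340153-49340359, plus strand: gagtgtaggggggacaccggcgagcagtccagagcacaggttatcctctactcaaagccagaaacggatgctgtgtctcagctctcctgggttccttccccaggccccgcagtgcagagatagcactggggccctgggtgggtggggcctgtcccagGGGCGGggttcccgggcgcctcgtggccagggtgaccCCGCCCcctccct
Drd4, chr7:141291768-141291973, plus strand: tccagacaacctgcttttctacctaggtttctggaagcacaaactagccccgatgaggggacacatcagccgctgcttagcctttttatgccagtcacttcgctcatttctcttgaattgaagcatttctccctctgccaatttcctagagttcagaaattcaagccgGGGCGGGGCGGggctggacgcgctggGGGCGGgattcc
The stretch of Drd1 held 0 GC boxes, that of Drd2 held 2, 1 on each strand, and that of Drd4 held 3, of which the first 2 share a base. In windows of 250 bases before to 50 after the start, a GC box was found for 4 of the 5 receptors, with Drd3 as the exception, and in 35.9% of 27025 promoters. A TATAAA box on either strand was found in 0 of the 5 receptor windows and in 14.2% of all. These matches describe the sequence and were not related to the measurements.

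Bcl11b itself was at 145, 141, 151 and 145 CPM (counts divided by the library size after TMM scaling) in the deletion mice, against 477, 368, 446 and 281 CPM in the control mice. Every deletion mouse was below every control mouse, and the log2 fold change, -1.43 ± 0.14 (standard error), had an edgeR adjusted p of 7.06e-05. Libraries held 51536311 to 70247098 counts in deletion mice and 47059264 to 50213377 in control mice, so that every deletion library was deeper than every control library. Deletion 2 stood apart from its group. Its squared count differences from the other deletion libraries, each divided by its value under counting error and averaged over genes, came to 45.8 to 68.2. For the other pairs within a group this mean was 13.6 to 30.5. A few genes can dominate such a mean. The summed level of 5 choroid plexus and ependyma markers was 72.3 to 9726 CPM in deletion mice, highest in deletion 2, and 44.8 to 1680 CPM in control mice. Genes were tested with edgeR on the counts of 22173 genes and passed at an adjusted p under 0.01. Nothing in the sources used here says that mice came from separate litters, so p-values measure the spread among these 8 mice.

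All 5 receptors were kept by the filter on low counts, and 2 of them passed the test, Drd4 as higher and Drd2 as lower in deletion mice. Among all genes tested, 8.78% passed, 4.87% as higher and 3.91% as lower. The same 2 receptors were those whose groups did not overlap in CPM, which held for 22.0% of all genes, 11.7% higher and 10.3% lower. Drd1, Drd3 and Drd5 did not pass. The median log2 fold change of the 5 receptors was -0.32, beside -0.0037 over all genes tested. Because bulk tissue was sequenced, fewer cells of a type and less RNA per cell cannot be told apart for any of these genes.

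**Figure D1:**
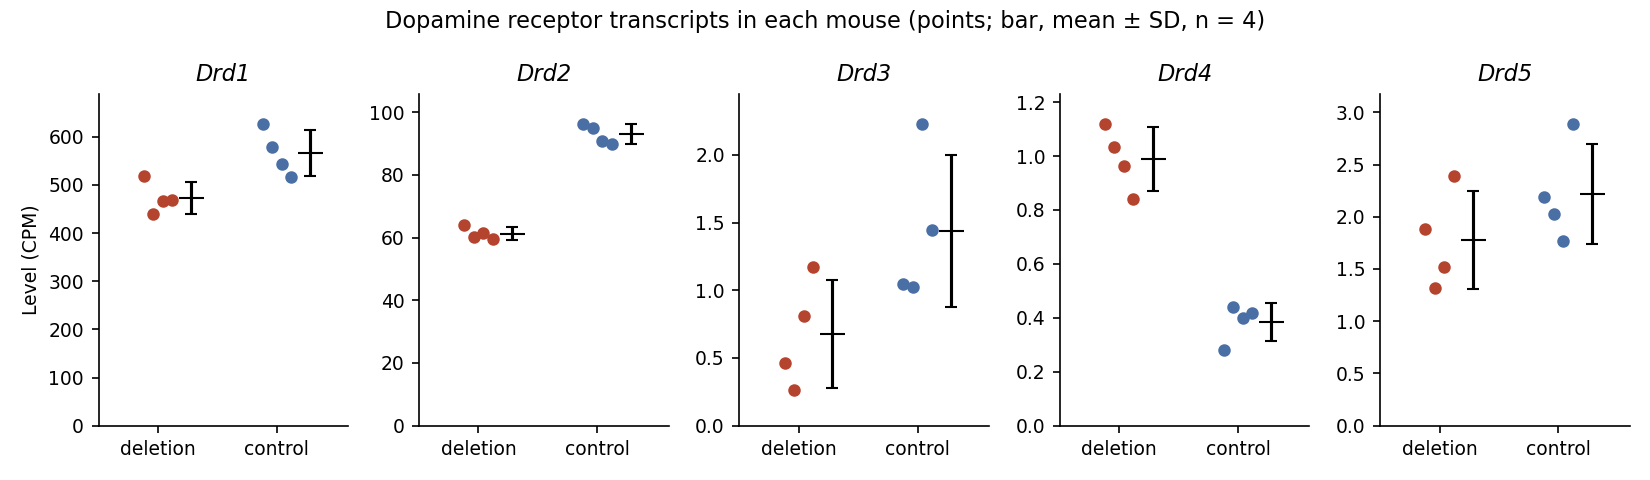
Levels of the 5 receptor transcripts in CPM for each of 4 deletion mice (red) and 4 control mice (blue), with the mean and SD of each group as a black bar and an axis from 0 in each panel. Deletion and control mice did not overlap for Drd2 (59.4 to 64.0 against 89.8 to 96.4 CPM) and Drd4 (0.842 to 1.12 against 0.281 to 0.440 CPM), and overlapped for the other 3 receptors.

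Drd1, the D1-like receptor of direct-pathway MSNs, had 36034, 24646, 30041 and 23875 counts in the deletion mice, against 31191, 27688, 27285 and 24626 in the control mice. Scaled to library size these were 517, 439, 466 and 468 CPM in the deletion mice, against 627, 580, 543 and 516 CPM in the control mice. The highest deletion mouse lay just above the lowest control mouse, so the groups overlapped. The group levels were 472 ± 32.8 CPM in deletion mice and 566 ± 48.1 CPM in control mice (SD, n = 4 each). The log2 fold change was -0.26 (95% interval -0.42 to -0.10), and it did not pass with edgeR (adjusted p = 0.0314) or limma-voom (0.0237). With DESeq2 the adjusted p was 0.00546, past the threshold, as were 14.9% of all genes (7.88% higher, 7.06% lower). Drd1 passed in 0 of 8 edgeR fits that left out 1 mouse each (adjusted p 0.0199 to 0.0870), and without deletion 2 its log2 fold change was -0.23.

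Drd5, the other D1-like receptor, was far lower in this tissue. It had 131, 74, 98 and 122 counts (1.88, 1.32, 1.52 and 2.39 CPM) in the deletion mice, against 109, 97, 89 and 138 counts (2.19, 2.03, 1.77 and 2.89 CPM) in the control mice. The groups overlapped, at 1.78 ± 0.470 CPM in deletion mice and 2.22 ± 0.479 CPM in control mice (SD, n = 4 each). The log2 fold change was -0.32 with a 95% interval of -0.82 to 0.18 (edgeR adjusted p = 0.390), an interval that holds changes in either direction. The antisense gene Gm26560 shares 1531 exon bases with Drd5. It was counted at only 4 to 6 reads in deletion mice and 2 to 4 in control mice, and the strand setting of the counting is not given in the sources used here.

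Drd2, the D2-like receptor of indirect-pathway MSNs, fell in the deletion mice, with the smallest spread of the family. Its counts were 4458, 3383, 3953 and 3034 in the deletion mice, against 4793, 4538, 4568 and 4286 in the control mice. The corresponding levels were 64.0, 60.2, 61.3 and 59.4 CPM in the deletion mice, against 96.4, 94.98, 91.0 and 89.8 CPM in the control mice. Every deletion mouse was well below every control mouse, and the coefficient of variation was 3.27% in deletion mice and 3.38% in control mice, against 1.64% and 1.48% from counting alone. The groups averaged 61.2 ± 2.002 CPM in deletion mice and 93.0 ± 3.15 CPM in control mice (SD, n = 4 each). On the log2 scale Drd2 changed by -0.60 (95% interval -0.71 to -0.50, edgeR adjusted p = 2.35e-05). By p-value Drd2 ranked 60 among the 22173 genes tested. It passed in 8 of 8 fits that left out 1 mouse each, with log2 fold changes of -0.62 to -0.59.

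Drd3 was the most variable receptor. It had 32, 15, 52 and 60 counts (0.460, 0.267, 0.807 and 1.18 CPM) in the deletion mice, against 52, 49, 112 and 69 counts (1.05, 1.03, 2.23 and 1.45 CPM) in the control mice. Deletion 4 lay above control 1 and control 2, while the other 3 deletion mice were below all control mice. The means were 0.677 ± 0.400 CPM in deletion mice and 1.44 ± 0.563 CPM in control mice (SD, n = 4 each). This spread, 59.1% of the mean in deletion mice and 39.2% in control mice, exceeded the 15.9% and 11.9% that counting alone gives. The log2 fold change of -1.09 had a 95% interval of -2.02 to -0.17 and did not pass (edgeR adjusted p = 0.106), and without deletion 2 it was -0.83.

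Drd4, the receptor with the lowest mean level per exon length in both groups, rose in the deletion mice. It had 78, 58, 62 and 43 counts (1.12, 1.03, 0.962 and 0.842 CPM) in the deletion mice, against 14, 21, 20 and 20 counts (0.281, 0.440, 0.398 and 0.419 CPM) in the control mice. No control mouse reached the lowest deletion mouse, in counts or in CPM. The lowest deletion value, 0.842 CPM in deletion 4, had a 95% Poisson interval of 0.610 to 1.13 CPM, and the highest control value, 0.440 CPM in control 2, one of 0.272 to 0.672 CPM, so those 2 single libraries overlap in counting error. Group levels were 0.989 ± 0.117 CPM in deletion mice and 0.385 ± 0.0708 CPM in control mice (SD, n = 4 each), a spread of about what counting alone gives (11.9% against 12.9% in deletion mice, 18.4% against 23.1% in control mice).

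For Drd4 the log2 fold change was 1.36 (95% interval 0.84 to 1.88), with an edgeR adjusted p of 0.00276, a DESeq2 adjusted p of 9.49e-05 and a limma-voom adjusted p of 0.00361. On the deposited rlog values, which shrink low counts towards their mean, the difference was 0.22 and passed. The call was lost without deletion 1 (edgeR adjusted p = 0.0124) and without deletion 3 (0.0104) and held in the other 6 of 8 fits that left out 1 mouse, where the log2 fold change was in all cases positive. Drd4 is known best from cortical neurons, and 8 markers of cortical excitatory neurons were summed in each mouse. Their summed level was 67.7 to 188 CPM in deletion mice and 69.7 to 177 CPM in control mice, overlapping ranges, and 1 of the 8 passed, Cux2 with a log2 fold change of 0.95 (edgeR adjusted p = 8.67e-05).

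Levels of different receptors were compared per kilobase of annotated exon (RPKM). In deletion mice Drd1 was at 130 ± 9.04 RPKM and Drd2 at 24.0 ± 0.786 RPKM, followed by Drd5 at 0.564 ± 0.149, Drd3 at 0.396 ± 0.234 and Drd4 at 0.293 ± 0.0347 RPKM (SD, n = 4). In control mice Drd1 was at 156 ± 13.3 RPKM and Drd2 at 36.5 ± 1.24 RPKM, followed by Drd3 at 0.839 ± 0.329, Drd5 at 0.705 ± 0.152 and Drd4 at 0.114 ± 0.0209 RPKM (SD, n = 4). Drd1 and Drd2 thus kept their places in both groups, and the mean of Drd2 was 42.7 times that of the next receptor in deletion mice and 43.5 times in control mice. In deletion mice the ranges of Drd5 and Drd3 overlapped, although Drd5 was above Drd3 in 4 of 4 mice, and those of Drd3 and Drd4 overlapped with Drd3 above Drd4 in 2 of 4 mice. In control mice the ranges of Drd3 and Drd5 overlapped, with Drd3 above Drd5 in only 1 of 4 mice, and Drd5 was above Drd4 in 4 of 4. Of the family's summed RPKM, Drd1 made up 83.7 ± 0.534% in deletion mice and 80.3 ± 0.945% in control mice, and Drd2 15.5 ± 0.606% in deletion mice and 18.8 ± 0.756% in control mice (SD, n = 4 each).

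**Figure D2:**
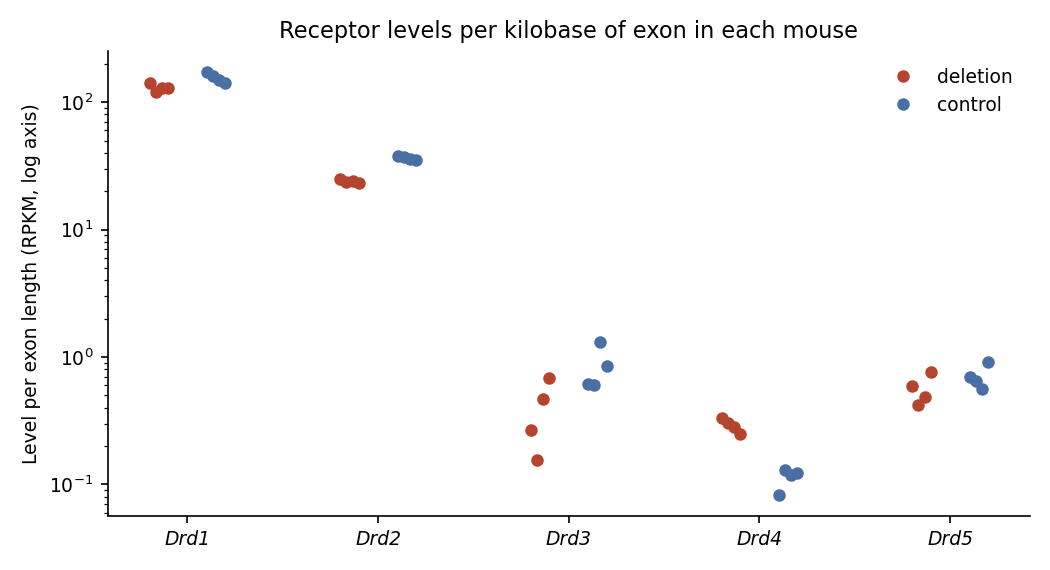
Level of each receptor per kilobase of exon (RPKM, log axis) in each of 4 deletion mice (red, left) and 4 control mice (blue, right). Drd1 and Drd2 lay between 23.3 and 173 RPKM in all mice, whereas Drd3, Drd4 and Drd5 lay between 0.0832 and 1.30 RPKM.

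Ratios of receptor counts were formed within each mouse, so that they do not depend on library size, and compared between groups on the log2 scale by exact two-sided permutation tests. Drd2 counts per 100 Drd1 counts were 12.4, 13.7, 13.2 and 12.7 in the deletion mice, against 15.4, 16.4, 16.7 and 17.4 in the control mice. All deletion mice were below all control mice, at 13.0 ± 0.587 in deletion mice and 16.5 ± 0.851 in control mice (SD, n = 4 each). The log2 difference was -0.34 (exact permutation p = 0.0286, the smallest that 4 against 4 allow, adjusted p = 0.0571 over 10 receptor pairs). The transcript of the main D2-like receptor was thus lower relative to that of the main D1-like receptor in every deletion mouse, by a difference that missed the threshold of 0.05 after adjustment. At the smallest p, the adjusted p depends only on how many of the 10 pairs reach it, not on the size of the difference.

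The 4 pairs that held Drd4 also did not overlap between groups. Drd4 counts per 100 Drd2 counts were 1.75, 1.71, 1.57 and 1.42 in the deletion mice, against 0.292, 0.463, 0.438 and 0.467 in the control mice. This pair had a log2 difference of 1.95, the Drd4 to Drd1 pair 1.61, the Drd4 to Drd3 pair 2.56 and the Drd5 to Drd4 pair -1.68, each with an exact permutation p of 0.0286 and an adjusted p of 0.0571. In total 5 of the 10 pairs were at the smallest p and 0 of 10 passed after adjustment. With 5 of 10 at the smallest p, the adjusted p is 0.0571 whatever the differences, so this miss says nothing of their size. Of these 5 pairs, 4 share Drd4. The other 5 pairs overlapped between groups. Their log2 differences were -0.95 for Drd3 to Drd1 (adjusted p = 0.238, exact permutation tests throughout), -0.61 for Drd3 to Drd2 (0.349), 0.27 for Drd5 to Drd2 (0.349), 0.88 for Drd5 to Drd3 (0.327) and -0.07 for Drd5 to Drd1 (0.629). The last of these changed sign without deletion 2 (0.02) and without control 4 (0.10).

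Each receptor was also set against genes of the same neurons, again within each mouse. Drd2 counts per 100 Adora2a counts were 23.0, 22.3, 22.2 and 23.9 in the deletion mice, against 27.1, 26.6, 31.7 and 29.5 in the control mice. Every deletion mouse was below every control mouse for this ratio to an adenosine receptor gene, with a log2 difference of -0.33 (exact permutation p = 0.0286, adjusted p = 0.0476 over 5 ratios). Against Penk, the enkephalin precursor, Drd2 counts per 100 were 12.8, 13.3, 13.2 and 12.1 in the deletion mice, against 17.6, 15.3, 14.97 and 14.4 in the control mice. These did not overlap either, and the log2 difference was -0.27 (exact permutation p = 0.0286, adjusted p = 0.0476). Drd2 was lower relative to both of these genes of indirect-pathway MSNs. This does not extend to all such genes. Of the 6 indirect-pathway markers counted below, only Gpr6 fell more than Drd2 (log2 fold changes -0.73 and -0.60), and no ratio to it was formed.

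Drd1 counts per 100 counts of Tac1, the substance P precursor, were 79.8, 86.7, 81.0 and 76.6 in the deletion mice, against 179, 112, 160 and 107 in the control mice. The deletion mice were again all lower, with a log2 difference of -0.75 (exact permutation p = 0.0286, adjusted p = 0.0476), and the control mice were spread widely. Relative to Pdyn, the dynorphin precursor, Drd1 had a log2 difference of -0.41 with overlapping groups (exact permutation test, adjusted p = 0.321). Drd5 relative to Chat, the enzyme of acetylcholine synthesis, had a log2 difference of -0.27, also with overlapping groups (exact permutation test, adjusted p = 0.400). The 3 ratios that passed had the same exact permutation p of 0.0286 as the 5 receptor pairs that missed the threshold. They passed because the adjustment was over 5 ratios with 3 at that p, in place of 10 pairs with 5. With 1 mouse left out the 3 ratios that passed stayed in their direction, at -0.87 to -0.62 for Drd1 to Tac1, -0.36 to -0.28 for Drd2 to Adora2a and -0.31 to -0.21 for Drd2 to Penk. Each of them kept its call without any 1 control mouse (4 of 4 fits) and missed it without any 1 deletion mouse (4 of 4 fits, adjusted p up to 0.0952, exact permutation). The groups stayed apart in all these fits. With so few mice the exact p moves in coarse steps, so these misses do not show that a ratio rests on single deletion mice.

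**Figure D3:**
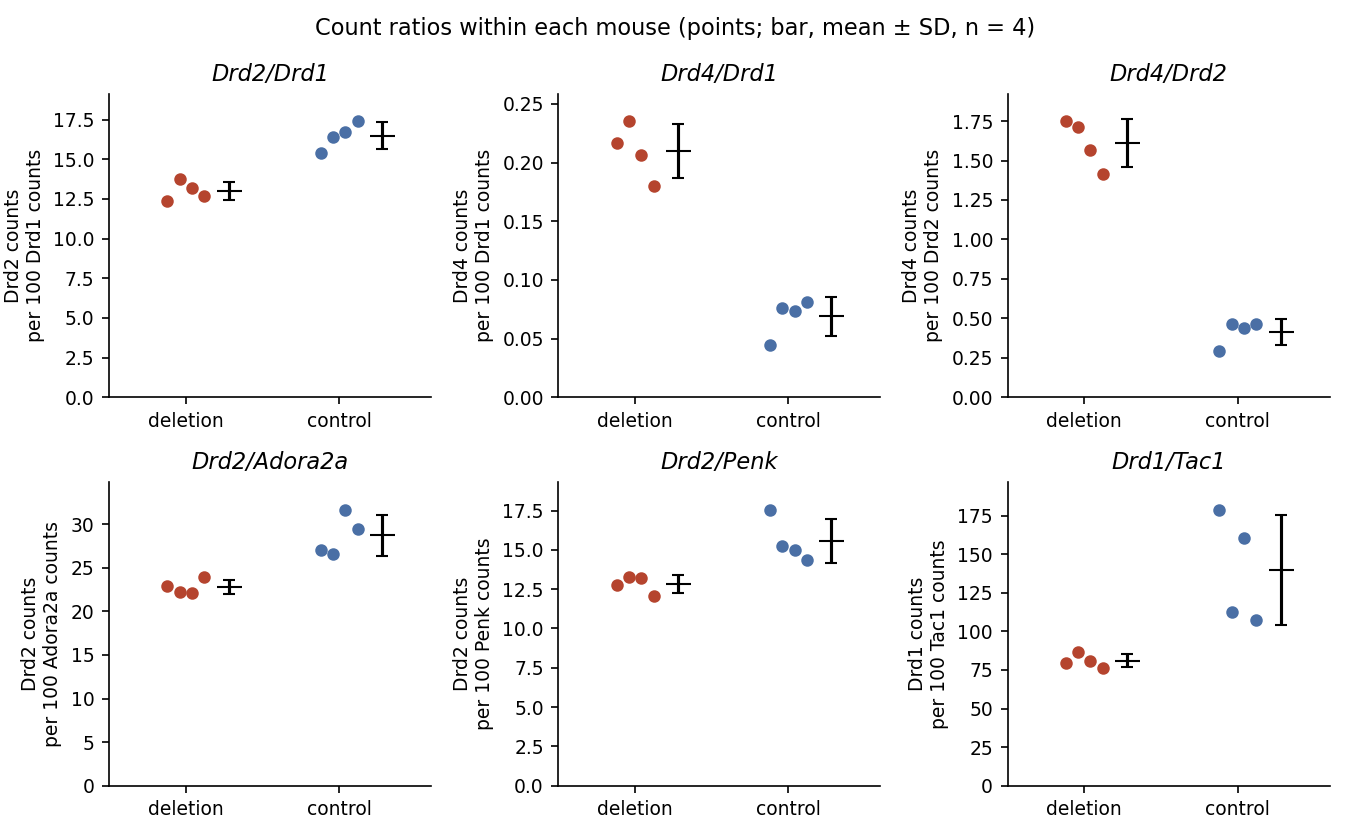
Count ratios within each mouse, as counts of the first gene per 100 counts of the second, for 4 deletion mice (red, left) and 4 control mice (blue, right), with group mean and SD as a black bar. The 6 panels show only ratios whose groups did not overlap, as for Drd2 to Drd1 with 12.4 to 13.7 against 15.4 to 17.4. Groups overlapped for 5 of the 10 receptor pairs and for 2 of the 5 ratios to genes of the same neurons, and none of these is shown.

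The partner genes themselves differed in how they behaved. Penk fell, at 478 ± 22.4 CPM in deletion mice and 601 ± 35.7 CPM in control mice (SD, n = 4 each; log2 fold change -0.33, edgeR adjusted p = 0.00381). This call was lost without deletion 3 (0.0174), without control 2 (0.0123) and without control 3 (0.0128). Adora2a was at 269 ± 13.7 CPM in deletion mice and 326 ± 35.7 CPM in control mice and did not pass (log2 fold change -0.28, edgeR adjusted p = 0.0287), though it did with DESeq2 (0.00628). Tac1 was at 585 ± 60.6 CPM in deletion mice and 422 ± 90.3 CPM in control mice, with a log2 fold change of 0.47 that did not pass (edgeR adjusted p = 0.0365) except with DESeq2 (0.00356) and with no filter on low counts. Pdyn (log2 fold change 0.10, adjusted p = 0.844) and Chat (-0.06, adjusted p = 0.714) did not pass in edgeR either.

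The nearest protein-coding genes on both sides of each receptor were examined as well, and of these 10 genes 5 were tested. Ankk1, which encodes a kinase-like protein with ankyrin repeats, lies 7016 bases beyond Drd2 (chr9:49415194-49427021, minus strand) and points towards it. It had 92, 41, 86 and 82 counts (1.32, 0.730, 1.33 and 1.61 CPM) in the deletion mice, against 155, 240, 300 and 157 counts (3.12, 5.02, 5.97 and 3.29 CPM) in the control mice. Every deletion mouse was below every control mouse. Ankk1 fell by 1.80 on the log2 scale, with a standard error of 0.280 (edgeR adjusted p = 0.00155), and passed in 8 of 8 fits that left out 1 mouse. It lies on the strand opposite to Drd2, and whether the counting used strand is not given in the sources used here.

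Deaf1, a transcription factor gene on the minus strand, ends 715 bases from Drd4. It was at 19.2 ± 0.485 CPM in deletion mice and 17.0 ± 1.17 CPM in control mice (SD, n = 4 each) with no overlap, but did not pass (log2 fold change 0.18, edgeR adjusted p = 0.109). Sfxn1, 16163 bases from Drd1 and itself a gene of direct-pathway MSNs, differed by -0.26 on the log2 scale (adjusted p = 0.0322 in edgeR), which passed with DESeq2 (0.00972) and, of the fits without 1 mouse, only without control 2 (0.00453). Qtrt2 near Drd3 (log2 fold change -0.13) and Slc2a9 near Drd5 (0.29) did not pass in edgeR (adjusted p = 0.414 and 0.5004). The other neighbours, Msx2, Gm4894, Tigit, Sct and Otop1, had 0 to 18 counts per mouse and were not tested.

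**Figure D4:**
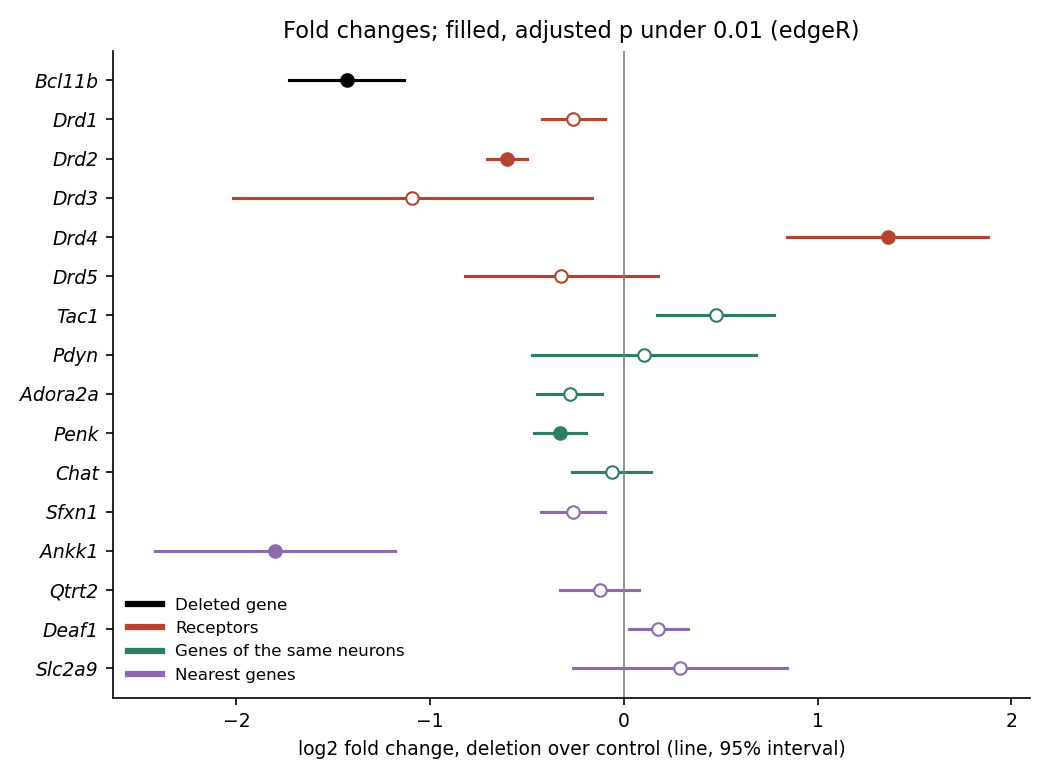
Log2 fold changes of deletion over control mice with 95% intervals for Bcl11b, the 5 receptors, 5 genes of the same neurons and 5 nearest genes, where filled points passed an edgeR adjusted p under 0.01. Drd2 (-0.60), Penk (-0.33) and Ankk1 (-1.80) lie below 0 and Drd4 (1.36) above 0 among the filled points beside Bcl11b (-1.43).

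Markers of the MSNs that carry Drd1 and Drd2 were counted next. Over all genes tested, 3.91% passed as lower and 4.87% as higher. Of 15 markers shared by all MSNs, 9 were lower and 0 higher, with a median log2 fold change of -0.39. Among them were Arpp21, a cyclic AMP-regulated phosphoprotein (-1.01), and Ptpn5, the striatal-enriched phosphatase (-0.96). The summed level of the 15 was 9092 to 10085 CPM in deletion mice and 11116 to 12638 CPM in control mice, and the share of these changes in those of Drd1 and Drd2 was not tested. Drd2, at -0.60, lay below the median of these markers and Drd1, at -0.26, above it.

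Markers of each pathway were set beside the same shares of all genes tested, 4.87% higher and 3.91% lower. Of 7 direct-pathway markers other than Drd1, 1 was higher, Slc35d3 (log2 fold change 0.47, edgeR adjusted p = 0.00491), and 1 was lower, Eya1 (-0.93, adjusted p = 0.00730). Neither call held in every fit without 1 mouse. Slc35d3 lost it without deletion 1 (0.0173), deletion 3 (0.0172), deletion 4 (0.0166) or control 1 (0.0148), and Eya1 held it only without deletion 4 (0.00765) or control 2 (0.00758). Of 6 indirect-pathway markers other than Drd2, 3 were lower and 1 was higher, and only 1 stayed lower without deletion 3, control 2 or control 3. The lower ones were Penk, Gpr6, an orphan receptor of these neurons (-0.73, edgeR adjusted p = 4.38e-05), and Sp9, a transcription factor for which every fit without 1 mouse missed the threshold (-0.47, adjusted p = 0.00590, and 0.0101 to 0.0261 in those fits). The higher one was Upb1, an enzyme of pyrimidine breakdown, at 73.8 ± 7.83 CPM in deletion mice and 9.99 ± 4.07 CPM in control mice (SD, n = 4 each; log2 fold change 2.89, edgeR adjusted p = 3.76e-05). Indirect-pathway markers therefore did not all move with Drd2.

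Markers of other cells of the tissue were taken as 8 lists with 50 tested genes. Of these 1 passed, Cux2, and 49 did not, while 5 had an unadjusted p under 0.05 and DESeq2 called 2. The shares of all genes tested that passed were 8.78% with edgeR and 14.9% with DESeq2. Cholinergic interneurons, a known site of Drd5, had 0 of 6 markers past the threshold, 1 at an unadjusted p under 0.05 and 1 with DESeq2. This was Slc18a3, the vesicular acetylcholine transporter, with a log2 fold change of 0.61 (edgeR adjusted p = 0.0180). The summed level of the 6 was 83.6 to 112 CPM in deletion mice and 95.6 to 117 CPM in control mice, ranges that overlapped as those of Drd5 did.

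Genes that supply dopamine to the receptors are mostly transcribed in midbrain neurons and are seen in striatal RNA at low levels. Of 8 genes of dopamine synthesis, transport and breakdown, 0 passed with edgeR, 3 had an unadjusted p under 0.05 and DESeq2 called 1. Of all genes tested, 8.78% passed with edgeR and 14.9% with DESeq2. Th, the rate-limiting enzyme of dopamine synthesis, was at 19.3, 11.2, 22.7 and 25.3 CPM in the deletion mice, against 3.62, 10.1, 7.39 and 10.9 CPM in the control mice. The groups did not overlap, but the log2 fold change of 1.30 did not pass (edgeR adjusted p = 0.0180) except without deletion 2 (0.00605) and with no filter on low counts (0.00110). Ddc, which makes dopamine from L-DOPA, was at a log2 fold change of 0.36 (edgeR adjusted p = 0.0469) and passed, of the alternatives run, only without control 1 (0.00424).

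Downstream of the receptors, 24 genes of the G protein and cyclic AMP arm were tested. In deletion mice 6 of them were lower, 0 were higher and 18 did not pass, with a median log2 fold change of -0.06. Of all genes tested, 3.91% were lower and 4.87% higher. The lower genes Ppp1r1b, Gng7 and Pde10a had already been counted among the lower markers of all MSNs, so the lists are not separate results. Ppp1ca, a catalytic subunit of protein phosphatase 1, was at 137 ± 3.04 CPM in deletion mice and 223 ± 22.4 CPM in control mice (SD, n = 4 each; log2 fold change -0.71, edgeR adjusted p = 7.33e-05). Ppp1r1b, whose product DARPP-32 inhibits that phosphatase after phosphorylation by protein kinase A, was at 569 ± 24.1 CPM in deletion mice and 812 ± 36.1 CPM in control mice (-0.51, adjusted p = 2.03e-04, edgeR). It also supplies the element that drives Cre in this line. Ppp2r5d, a regulatory subunit of protein phosphatase 2A (-0.47), and Prkar2b, a regulatory subunit of protein kinase A (-0.42), fell as well.

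The remaining genes of that arm which passed were Gng7, a G protein gamma subunit that assembles with Golf (log2 fold change -0.39), and Pde10a, a striatal phosphodiesterase (-0.39). Both held the edgeR threshold in only 1 of 8 fits without 1 mouse, that without control 4 (adjusted p = 0.00313 for Gng7 and 0.00723 for Pde10a). Adcy5, the main striatal adenylyl cyclase, is named after its value was seen, since it is the enzyme on which D1-like and D2-like receptors converge. It was at 1191 ± 88.8 CPM in deletion mice and 1376 ± 120 CPM in control mice (SD, n = 4 each) and did not pass (log2 fold change -0.21, edgeR adjusted p = 0.113). Gnao1, a G protein of D2-like receptors named for the same reason, did not pass either (-0.26, adjusted p = 0.0118 in edgeR), though it did with DESeq2 (0.00109), with library totals alone and with no filter on low counts.

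Genes of receptor desensitization, arrestin signaling and receptor-interacting proteins moved in both directions. Of 23 tested genes, 3 were higher, 7 were lower and 13 did not pass, with a median log2 fold change of -0.13. Of all genes tested, 4.87% were higher and 3.91% lower. Grk2, a kinase that phosphorylates active receptors, rose to 112 ± 7.29 CPM in deletion mice, against 81.3 ± 3.54 CPM in control mice (SD, n = 4 each; log2 fold change 0.46, edgeR adjusted p = 4.11e-04), whereas Grk5, a kinase of the same family, fell (-0.57, adjusted p = 0.00117). Rgs4, which speeds the shutdown of inhibitory G proteins, rose by 0.41 and Arrb2, the arrestin that couples Drd2 to Akt, by 0.33 on the log2 scale. Of the higher genes, Grk2 passed in 8 of 8 fits without 1 mouse, Rgs4 only without deletion 2 (0.00659) or control 1 (0.00130), and Arrb2 only without control 2 (0.00820), all with edgeR.

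Among the lower genes of that list were Akt2 (log2 fold change -0.46) and Gsk3b (-0.37), kinases of the arrestin arm of Drd2 signaling, and Rgs7bp (-0.67), which anchors regulators of G protein signaling at the membrane. The related kinase genes Akt1 (0.15, edgeR adjusted p = 0.0911) and Gsk3a (0.03, 0.791) of the same list did not pass. Flna, an actin crosslinker that binds Drd2 and Drd3, fell as well (-0.48), as did Caly, which encodes the D1 receptor-interacting protein calcyon (-0.26). Akt2, Gsk3b, Rgs7bp, Grk5 and Flna passed in 8 of 8 fits that left out 1 mouse. Of those fits, Caly passed only without control 2 (adjusted p = 0.00872) or control 4 (0.00434) in edgeR. In these 23 genes, 14 had groups that did not overlap, where 22.0% of all genes tested did so.

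**Figure D5:**
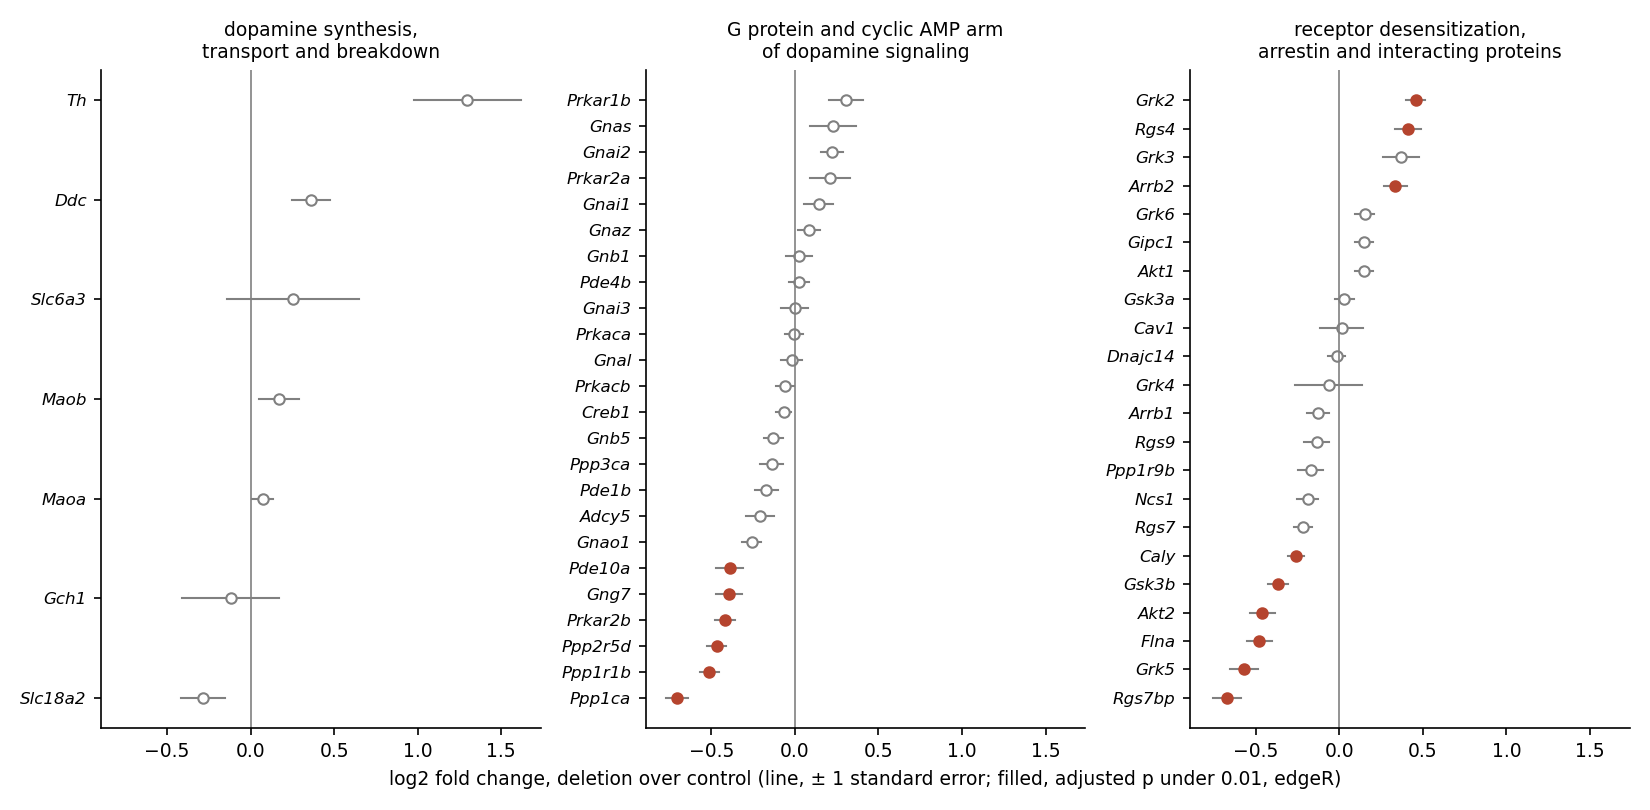
Log2 fold changes of deletion over control mice with ± 1 standard error for 7 genes of dopamine synthesis, transport and breakdown (left), 24 of the G protein and cyclic AMP arm (middle) and 22 of desensitization, arrestin signaling and interacting proteins (right). Filled points passed an edgeR adjusted p under 0.01 and number 0 in the left, 6 in the middle and 9 in the right panel.

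The genes most like each receptor across the 8 mice were found by Pearson's r of log2 CPM among genes with a mean of at least 1 CPM, as a description that rests on few points and on the group difference. For Drd2 they were Mpp6 (r = 0.996), Abcc12 (0.994) and Rreb1 (0.994), all of which fell in deletion mice, with log2 fold changes of -1.01, -1.93 and -1.95. For Drd4 they were Rai2 (0.997), Zbtb1 (0.993) and Tmem202 (0.992), which rose, with log2 fold changes of 0.55, 0.50 and 1.23. Of the fits without 1 mouse, Rai2 held its call only in that without control 4 (edgeR adjusted p = 0.00941).

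The receptors that did not pass were most like genes that did not pass either, which a choice by r over both groups favours. For Drd1 these were Insyn1 (r = 0.980), Gm22513 (0.978) and Bbs9 (0.976), for Drd3 Mtmr7 (0.991), Sult2b1 (0.977) and Golgb1 (0.977), and among those of Drd5 were Shisa6 (0.942) and Atg14 (0.933). With the group means taken out, r was 0.935 to 0.962 for the 3 genes of Drd1, 0.957 to 0.989 for those of Drd3 and 0.628 to 0.804 for those of Drd2. For those of Drd4 it was 0.896 to 0.959 and for Shisa6 and Atg14 0.926 and 0.912. All these genes were picked for the highest r over the same mice, so these values are not separate evidence of likeness. Of the fits without 1 mouse, Gm22513 passed only in that without deletion 1 (edgeR adjusted p = 0.00116) and Insyn1 only in that without control 4 (0.00828), and Gm22513 also passed with no filter on low counts and with the replicate block.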

How the data were processed

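Paired-end reads of rRNA-depleted libraries were trimmed by the authors (Trim Galore 0.6.4) and aligned to GRCm38.p6 (STAR 2.7.2b), and featureCounts gave counts per gene, per the labels. The deposited tables hold raw counts and log2 values, which the authors made with the rlog transformation of DESeq2. Whether the counting used strand or multimapping reads is not given in the sources used here.

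Counts of all features were analysed here with edgeR 4.0.16 in R 4.3.3: filterByExpr (minimum count 10, minimum total 15), TMM normalization and the quasi-likelihood F-test on group alone, adjusted by Benjamini-Hochberg over 22173 genes, at a threshold of 0.01. The code was checked on simulated data. Ratios of counts within a mouse (0.5 added) were tested by exact permutation (two-sided, 70 assignments) with Python 3.11.15 and scipy 1.17.1, adjusted over 10 receptor pairs and over 5 ratios to genes of the same neurons, at a threshold of 0.05. Exon lengths came from the GRCm38 annotation. DESeq2 1.42.0 and limma 3.58.1 served as alternatives.

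The receptors, gene lists and rules were chosen with earlier results of these data known. The named genes are the receptors, Bcl11b, the ratio partners, the nearest genes, the 3 most alike genes, up to 3 genes of smallest p from each list and every gene of the dopamine lists that passed. Some genes that these rules name are not reported here. Adrbk1 and Adrbk2, in the list under older symbols, are Grk2 and Grk3 and were counted once.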

Additional observations from a re-analysis of the deposited data

Results flagged for a closer look

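In groups of 4 mice, the highest or lowest value was set against the range of its group (Dixon's ratio, critical value 0.829) for 52 groups, and 3 exceeded it, where chance gives about 1 in 20. All 3 were control mice in ratios between receptors, given as log2 count ratios. Drd5 to Drd1 was -7.47 in control 4, against -8.25 to -8.15 in the other control mice. Drd4 to Drd2 was -8.37 in control 1, against -7.80 to -7.71 in the others, a ratio that rests on 14 counts of Drd4. Drd5 to Drd3 was -0.33 in control 3, the mouse with the most Drd3 counts (112), against 0.98 to 1.06 in the others. The causes were not tested.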

How the results depend on the processing

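Drd2 kept its direction and its call under all 9 alternatives and all 8 fits without 1 mouse (log2 fold change -0.62 to -0.49), and Drd3 and Drd5 kept their sides. Without 1 mouse, Drd1 was -0.31 to -0.21, Drd3 -1.48 to -0.80, Drd4 1.24 to 1.43 and Drd5 -0.49 to -0.17. DESeq2 called 3313 genes in place of 1947, among them Drd1 (-0.26, adjusted p = 0.00546), and fits without 1 mouse called 1102 to 2066. Drd4 could not be fitted under a filter of 1 CPM in 4 mice. Replicate numbers did not pair the mice (correlations of same-numbered mice 0.03, -0.23, 0.03 and 0.06). With the replicate block 1165 genes were called, Drd4 missed the threshold (1.36, adjusted p = 0.0163), and the ratios Drd1 to Tac1 (-0.75), Drd2 to Adora2a (-0.33) and Drd2 to Penk (-0.27) could not pass, since sign flips of 4 pairs allow no p below 0.125. On the deposited rlog values, which shrink low counts towards their mean, Drd3 was -0.245, Drd4 0.22 and Drd5 -0.12 with their calls as before, and 6 receptor pairs passed (adjusted p = 0.0476): Drd2 to Drd1 (-0.27), Drd4 to Drd1 (0.44), Drd4 to Drd2 (0.71), Drd5 to Drd2 (0.37), Drd4 to Drd3 (0.47) and Drd5 to Drd4 (-0.34), while Drd5 to Drd1 (0.10) and Drd3 to Drd2 (0.24) changed sign. Leaving out 1 mouse gave log2 differences of -0.38 to -0.32 for Drd2 to Drd1, -1.29 to -0.62 for Drd3 to Drd1, 1.42 to 1.70 for Drd4 to Drd1, -0.23 to 0.10 for Drd5 to Drd1, -0.96 to -0.25 for Drd3 to Drd2, 1.80 to 2.02 for Drd4 to Drd2, 0.10 to 0.42 for Drd5 to Drd2, 2.17 to 2.97 for Drd4 to Drd3, 0.54 to 1.09 for Drd5 to Drd3 and -1.91 to -1.53 for Drd5 to Drd4. Chat changed sign without deletion 2 (0.010) within a range of -0.13 to 0.010, and Pdyn without control 1 (-0.077) and control 3 (-0.02) within a range of -0.077 to 0.31. The ratios that passed were -0.87 to -0.62 for Drd1 to Tac1, -0.36 to -0.28 for Drd2 to Adora2a and -0.31 to -0.21 for Drd2 to Penk without 1 mouse. For the other 53 named genes, 453 of 477 values under other alternatives and 355 of 424 values without 1 mouse kept direction and side. Among the lists, direct-pathway markers had 2 calls with edgeR, 4 with DESeq2 and 0 with the replicate block, indirect-pathway markers 4 and 2 with the block, the desensitization list 10 and 6 with the block, and the synthesis list 0, against 1 with DESeq2 and 1 with no filter on low counts (Th). Counts of Drd3, Drd4 and Drd5 between 14 and 138 limit what can be seen of them. The causes of these differences were not tested.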
